A study of Mus musculus with 8 samples.

Results

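The genes described here build the first antigen receptor of a B cell. They are Rag1 and Rag2, Dntt, Vpreb1, Vpreb2, Vpreb3 and Igll1, Ighm, Cd79a and Cd79b, and every probe set whose annotation gave exactly 1 gene symbol among these 10 was taken. That rule found 22 of the 45037 probe sets on the array, for 9 of the 10 genes. Vpreb2 had none of its own, since the probe set that lists it also lists Vpreb1. The arrays compared 2 samples of Crebbp+/- cells with 2 samples of wild-type cells, each sample measured on 2 arrays. All cells were labelled Sca-1+, Lin-, AA4.1+, c-Kit++ fetal liver haematopoietic stem cells on the C57BL/6 background, from 15 combined embryos per sample, with the age given as 14.5 dpc (days post coitum) in one label field and as 14 dpc in another. The Crebbp+/- embryos carry 1 mutant copy of Crebbp, the gene of CBP, an enzyme that acetylates histones and helps DNA-bound factors to start transcription. The kind of mutant allele is not given in the sources used here.

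V(D)J recombination joins separate gene segments of the immunoglobulin and T cell receptor loci into 1 coding exon. RAG1 and RAG2 cut the DNA beside the segments, the end-joining machinery repairs the break, and terminal transferase, the product of Dntt, adds bases at the joint. In a pre-B cell the new heavy chain, whose constant part comes from Ighm, pairs with a surrogate light chain made from VpreB and lambda 5, the products of Vpreb1, Vpreb2 and Igll1, and signals through the CD79A and CD79B chains. Lymphoid-primed progenitors can transcribe some of these genes before a receptor is made.

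The 250 bases before the annotated start are shown for 4 of the genes, because Rag1 and Vpreb1 are 2 of the genes whose samples separated by genotype, Igll1 is the gene next to Vpreb1, and Vpreb1 and Vpreb2 are near copies that share a probe set. All windows are from RefSeq on GRCm38.p6, read 5′ to 3′ on the gene's strand. Capitals mark the E-box CANNTG, a pattern bound by E proteins, in Rag1. In Vpreb1 they mark the CRE core TGACG, the pattern bound by CREB, for which CBP is named, and in Vpreb2 the 5 bases aligned to it. In Igll1 they mark CCCNNGGG, the pattern bound by EBF1.
Rag1, chr2:101649533-101649782, minus strand: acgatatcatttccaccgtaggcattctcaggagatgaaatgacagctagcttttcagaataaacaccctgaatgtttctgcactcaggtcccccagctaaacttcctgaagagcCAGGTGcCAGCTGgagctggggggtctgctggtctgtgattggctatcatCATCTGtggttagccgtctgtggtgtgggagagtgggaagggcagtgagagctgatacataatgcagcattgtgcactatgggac
Vpreb1, chr16:16869256-16869505, minus strand: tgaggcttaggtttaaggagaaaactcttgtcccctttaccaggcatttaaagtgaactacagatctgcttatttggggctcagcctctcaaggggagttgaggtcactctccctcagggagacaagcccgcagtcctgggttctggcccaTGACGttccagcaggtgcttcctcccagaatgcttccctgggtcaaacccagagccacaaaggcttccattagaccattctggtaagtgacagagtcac
Vpreb2, chr16:17980315-17980564, plus strand: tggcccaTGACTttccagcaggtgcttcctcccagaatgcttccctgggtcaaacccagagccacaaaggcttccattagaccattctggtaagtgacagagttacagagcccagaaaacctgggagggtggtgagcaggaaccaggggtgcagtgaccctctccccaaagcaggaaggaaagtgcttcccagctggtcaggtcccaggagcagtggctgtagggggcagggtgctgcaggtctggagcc
Igll1, chr16:16863986-16864235, minus strand: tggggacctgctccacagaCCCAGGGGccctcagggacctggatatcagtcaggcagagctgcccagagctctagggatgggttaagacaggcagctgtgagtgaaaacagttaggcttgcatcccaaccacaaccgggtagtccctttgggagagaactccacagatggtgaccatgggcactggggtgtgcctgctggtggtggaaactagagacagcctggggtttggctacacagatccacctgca

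A window was found for 8 of the 10 genes, which left out Ighm and Cd79b. Searched on both strands, the E-box occurred in 8 of these 8 windows and in 66.2% of all 32851 windows of the same length. The CRE core occurred in 1 of the 8, against 17.8% of all windows, and the EBF1 pattern in 1 of the 8, against 11.8%. The capitals in these windows overlap no match of another of these patterns. The windows of Vpreb1 and Vpreb2 share a stretch of 106 aligned bases, of which 104 are identical (98.1%). It covers bases 145 to 250 of the Vpreb1 window and bases 1 to 106 of the Vpreb2 window. Counting from 1 at the 5′ end of the Vpreb1 window, the differences are G156T and C248T, and the first of them lies inside the CRE core, so that TGACG in Vpreb1 stands against TGACT in Vpreb2. Rag1 and Rag2 have no other protein-coding gene between them on chromosome 2, nor have Vpreb1 and Igll1 on chromosome 16. Crebbp is on chromosome 16 as well, with 98 protein-coding genes between it and Igll1. What part this shared chromosome has in the results was not tested.

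Values are GCRMA signals on the log2 scale. Background is the median over all probe sets of an array, which lay between 2.65 and 2.70, and a probe set was called clear when every sample was at least 1 log2 unit above it. By that measure 3 of the 22 probe sets were clear, 1 of Cd79b and 2 of Ighm. Another 5 lay near background, for Rag1, Rag2, Vpreb1 and Igll1, and 14 lay at background, among them every probe set of Dntt, Vpreb3 and Cd79a. The plot of distances from background shows these classes. The 8 probe sets that were clear or near background passed the filter on low values, a mean above 2.72, and were tested. Closest to that filter were Rag1, inside it with a mean of 3.37, and an Ighm probe set, outside it with a mean of 2.43. A signal from RNA of a whole sample cannot tell fewer transcribing cells from less RNA per cell.

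**Figure D1:**
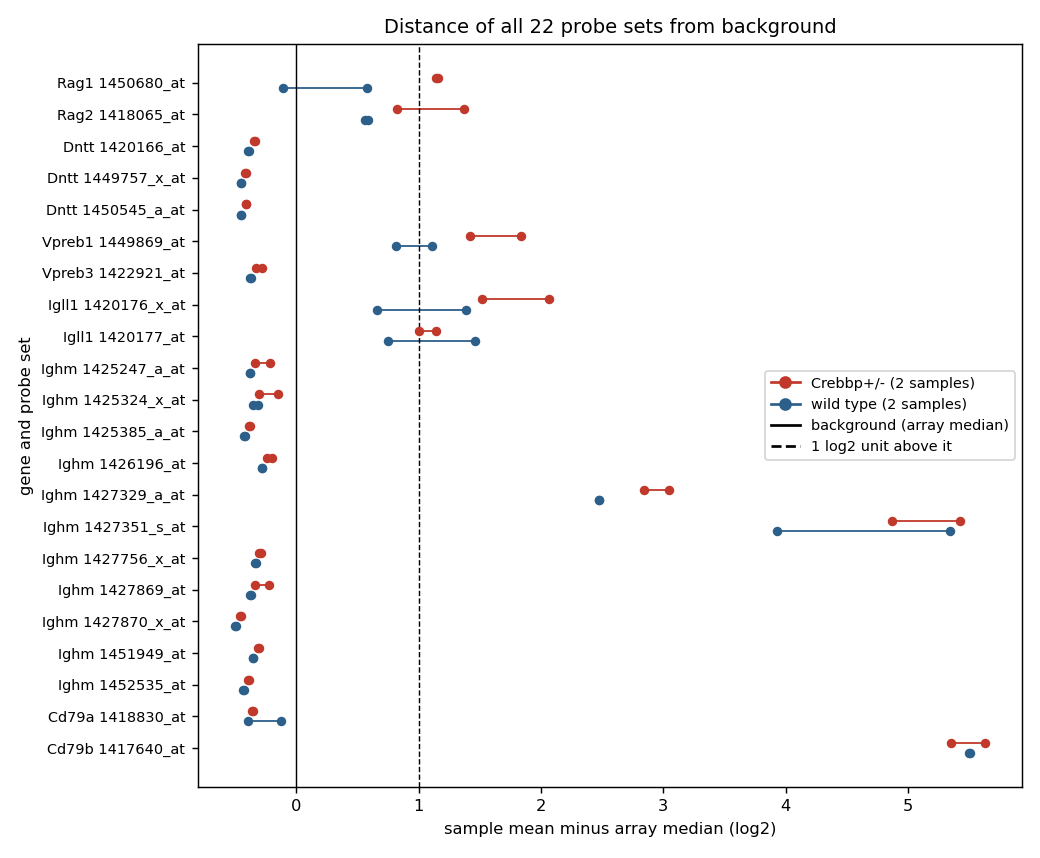
Distance of each of the 22 probe sets from background, as the sample mean minus the array median in log2 units. Red points are the 2 Crebbp+/- samples and blue points the 2 wild-type samples, joined by a line, the solid vertical line is background and the dashed line is 1 log2 unit above it. Cd79b and 2 Ighm probe sets lie to the right of the dashed line in all 4 samples, and 14 probe sets lie left of background.

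Crebbp itself was measured by 4 probe sets, all tested, and none passed the test between genotypes. The brightest, 1435224_at, had 11.95 and 11.66 in the Crebbp+/- samples, against 12.07 and 11.41 in the wild-type samples, a difference of 0.07 (limma adjusted p = 1.00). The differences of the other 3 probe sets ran from -0.42 to 0.01. Whether they lie in the altered part of the gene is not given in the sources used here, so they do not check the genotype labels. Kit, which encodes the c-Kit receptor used in the sort, was clear at 9.34 and 9.31 in the Crebbp+/- samples, against 9.36 and 9.05 in wild type, and Cd93, the AA4.1 antigen, was clear at 12.24 and 12.16 against 12.33 and 12.05. Ly6a, the Sca-1 gene, was not analysed here.

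No probe set of these genes passed the test between genotypes, and none of the 22518 tested probe sets did (0% with a limma adjusted p under 0.05). Without adjustment, 1 of the 8 had a limma p under 0.05, Rag1, which was higher in Crebbp+/-. Over all tested probe sets 1.23% had such a p and were higher in Crebbp+/-, and 3.61% had such a p and were lower. In 5 of the 8 probe sets, those of Rag1, Rag2, Vpreb1, 1 of Igll1 and 1 of Ighm, both Crebbp+/- samples lay above both wild-type samples. The share over all tested probe sets was 15.6%. Over those with a mean between 3 and 5, a range chosen after the values were seen, it was 14.5%. The tested probe sets of Ighm and Cd79b had means above that range. The second share therefore compares only with those of Rag1, Rag2, Vpreb1 and Igll1. In 3 of the 8, those of Rag1, Igll1 and Ighm, all 4 Crebbp+/- arrays lay above all 4 wild-type arrays, against 3.24% of all tested probe sets. These counts are over probe sets that passed the filter, with 2 probe sets each for Igll1 and Ighm, so they are not counts of independent genes.

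**Figure D2:**
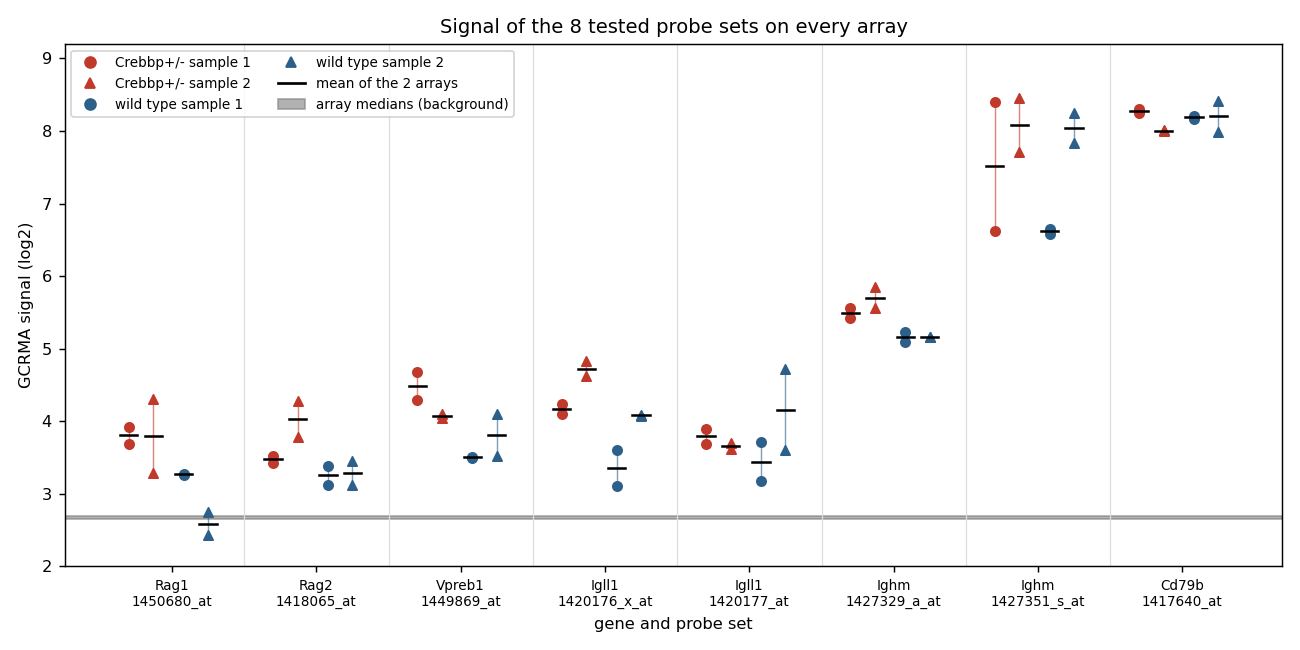
Signal (GCRMA, log2) of the 8 tested probe sets on every array. For each probe set the 2 Crebbp+/- samples (red) stand left of the 2 wild-type samples (blue), circles are sample 1 and triangles sample 2, a black bar is the mean of the 2 arrays of a sample, and the grey band is the range of array medians. The Rag1 points of Crebbp+/- lie between 3.29 and 4.31 and those of wild type between 2.43 and 3.27, while the Cd79b points of both genotypes lie between 7.99 and 8.41.

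Rag1, the subunit of the recombinase that holds its catalytic site, had the largest difference of the 8. Its probe set 1450680_at read 3.69 and 3.92 on the arrays of Crebbp+/- sample 1 and 3.29 and 4.31 on those of sample 2, against 3.26 and 3.27 in wild-type sample 1 and 2.75 and 2.43 in wild-type sample 2. The 2 genotypes did not overlap, although the lowest Crebbp+/- array was only just above the highest wild-type array, and wild-type sample 2 lay at background. The means were 3.80 ± 0.01 in Crebbp+/- and 2.93 ± 0.48 in wild type (SD, n = 2 each), 1.15 and 0.24 above background. The difference was 0.87 (SE 0.29, 95% interval 0.11 to 1.63), with a limma adjusted p of 0.99. It was 0.54 between the samples numbered 1 and 1.21 between those numbered 2.

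Rag2, the partner subunit that RAG1 needs to cut, was also near background. Its probe set 1418065_at read 3.52, 3.43, 4.27 and 3.79 on the Crebbp+/- arrays, against 3.39, 3.12, 3.45 and 3.12 on the wild-type arrays. All 4 wild-type arrays and the arrays of Crebbp+/- sample 1 lay close together, and Crebbp+/- sample 2 was higher. The difference was 0.49 (SE 0.27, 95% interval -0.21 to 1.18; limma adjusted p = 0.99), made up of 0.22 in number 1 and 0.75 in number 2. Across the 8 arrays Rag1 and Rag2 correlated with r = 0.39, a description in which pairs of arrays share a sample.

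Dntt, whose enzyme adds untemplated bases at the joints, gave no signal above background on its 3 probe sets. Their values over all arrays ran from 2.24 to 2.33, and the largest of their differences between genotypes was 0.01. These probe sets cannot show whether Dntt differed.

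Among the genes of the surrogate light chain, Vpreb1 had both Crebbp+/- samples above both wild-type samples, without passing the test. VpreB1 takes the place of the variable domain of a light chain. Its probe set 1449869_at read 4.68, 4.29, 4.10 and 4.05 on the Crebbp+/- arrays, against 3.50, 3.51, 3.52 and 4.09 on the wild-type arrays. The second array of wild-type sample 2 reached the level of Crebbp+/- sample 2, so the arrays of the genotypes overlapped while the sample means did not. The difference was 0.63 (SE 0.27, 95% interval -0.09 to 1.34; limma adjusted p = 0.99), with 0.98 in number 1 and 0.27 in number 2. The probe set shared by Vpreb2 and Vpreb1, 1422416_s_at, was below the filter, at 2.68 and 2.68 in the Crebbp+/- samples and 2.38 and 2.37 in the wild-type samples. It therefore bears on neither gene.

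Igll1, which encodes lambda 5, the partner that takes the place of the constant domain, had 2 probe sets that disagreed. On 1420176_x_at the Crebbp+/- arrays read 4.24, 4.10, 4.63 and 4.83, against 3.10, 3.61, 4.09 and 4.08 in wild type. Every Crebbp+/- array was above every wild-type array, only just so at the nearest pair. The difference was 0.73 (SE 0.37, 95% interval -0.25 to 1.70; limma adjusted p = 0.99), and it was 0.81 and 0.64 within numbers 1 and 2. On 1420177_at the Crebbp+/- arrays read 3.69, 3.90, 3.62 and 3.70, against 3.72, 3.17, 3.60 and 4.72 in wild type, and the genotypes overlapped. That difference was -0.07 (SE 0.31, 95% interval -0.90 to 0.75), with 0.35 in number 1 and -0.50 in number 2, and the 2 arrays of wild-type sample 2 were 1.12 apart. Across the 8 arrays the 2 Igll1 probe sets correlated with r = 0.11. The name ending in _x_at marks a probe set whose probes can also match other transcripts. Vpreb3, which encodes a protein that binds immunoglobulin chains in the endoplasmic reticulum of B lineage cells, stayed at 2.32 to 2.43 on all arrays, below background.

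Ighm, the constant region of the mu heavy chain, had 11 probe sets, of which 2 were clear and 9 lay at background. On 1427329_a_at the Crebbp+/- arrays read 5.56, 5.43, 5.86 and 5.56, against 5.10, 5.23, 5.17 and 5.16 in wild type, so the genotypes did not overlap. The means were 5.60 ± 0.15 in Crebbp+/- and 5.17 ± 0.001 in wild type (SD, n = 2 each). The difference was 0.43 (SE 0.27, 95% interval -0.28 to 1.15; limma adjusted p = 0.99), and it was 0.33 and 0.54 within numbers 1 and 2. The limma interval is wide beside these SDs because the fit also draws on the spread of other probe sets of like signal.

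On the other clear Ighm probe set, 1427351_s_at, the Crebbp+/- arrays read 8.40, 6.62, 7.71 and 8.46, against 6.65, 6.58, 7.83 and 8.25 in wild type. The arrays of Crebbp+/- sample 1 were 1.78 apart, more than the difference of 0.47 between genotypes (SE 0.55, 95% interval -0.96 to 1.91). In wild type the values followed the sample number, with sample 2 at 8.04 and sample 1 at 6.62, and the difference between genotypes was 0.90 in number 1 and 0.04 in number 2. Without wild-type sample 1 it was -0.24. The remaining 9 Ighm probe sets ran from 2.20 to 2.58 over all arrays. Another 4 probe sets that list Ighm beside immunoglobulin variable or Ighg3 genes belong to none of them by the rule used here.

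CD79A and CD79B form the signalling pair of the receptor, and their genes gave opposite pictures of level. Cd79b was far above background in both genotypes, by 5.49 in Crebbp+/- and 5.50 in wild type. Its probe set 1417640_at read 8.30, 8.25, 8.0 and 8.01 on the Crebbp+/- arrays, against 8.21, 8.17, 8.41 and 7.99 on the wild-type arrays, and the genotypes overlapped. The difference was -0.05 (SE 0.23, 95% interval -0.66 to 0.55; limma adjusted p = 1.00), with 0.09 in number 1 and -0.19 in number 2. Cd79a lay at background on all arrays but 1, between 2.29 and 2.31, and read 2.86 on the first array of wild-type sample 2.

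**Figure D3:**
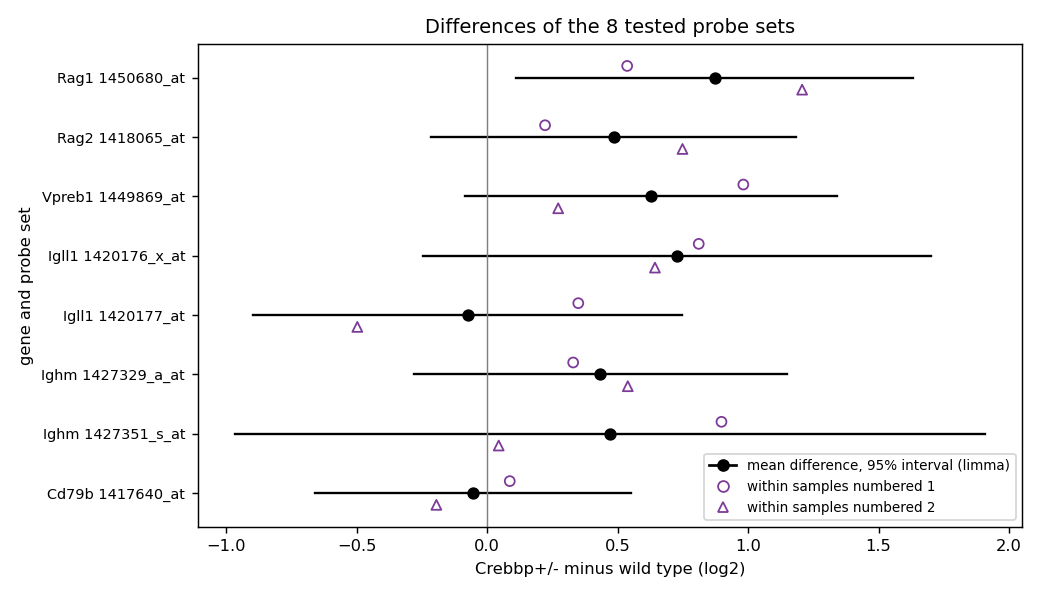
Difference between genotypes for the 8 tested probe sets, Crebbp+/- minus wild type in log2 units. Filled points are the mean difference with its 95% limma interval (n = 2 samples each), open circles the difference between samples numbered 1 and open triangles that between samples numbered 2. Of the 8 intervals only that of Rag1, 0.11 to 1.63, leaves out 0, and for Igll1 1420177_at and Cd79b the 2 sample numbers differ in sign.

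With each gene taken by its probe set of highest mean, the 6 tested genes had a median difference of 0.56, and 5 of the 6 were higher in Crebbp+/-, as were 6028 of all 10600 tested genes. The median was 0.67 within number 1 and 0.46 within number 2. Over all tested genes the median was 0.04. Among probe sets with a mean between 3 and 5 the median size of the difference was 0.27 and the 90th percentile 0.81, and the median gap between the 2 arrays of a sample was 0.33. Rag1 lay above that percentile, Igll1, Vpreb1 and Rag2 below it. Members were chosen with earlier results of these data known, and the median has no test.

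Of 15 genes for break repair and cofactors, 13 had a probe set and 12 were tested, with 7 higher, 5 lower, none past the test, and a median of 0.09. The median ran from -0.0076 to 0.16 when 1 sample or array was left out, so its sign was not stable. Hmgb2, a DNA-bending cofactor of the recombinase, differed by 0.12, Trp53bp1, a repair factor at breaks, by -0.31 on its brightest probe set, and H2ax (also named H2afx), the histone marked at breaks, by 0.12. Among the brightest probe sets of these genes, the lowest p-values were those of Paxx, an end-joining factor, with a difference of -0.89, and Lig4, the ligase of end joining, with 0.77 (limma adjusted p = 0.99 for both). Lig4 read 4.17 and 3.03 in Crebbp+/-, against 2.57 and 3.10 in wild type, so that 1 sample set its difference apart. The probe sets of Trp53bp1 did not give 1 value, since 2 dimmer ones differed by -1.42 and -1.12 (limma adjusted p = 0.99 for both), a pair named after their values were seen. Polm, a polymerase of the same pathway, was at background.

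Of 16 genes that carry the receptor's signal, 13 had a probe set and 10 were tested, 3 of them higher and 7 lower, none past the test, with a median of -0.15. Over all tested genes 4572 of 10600 were lower. The median was -0.00042 without wild-type sample 2 and -0.000215 without Crebbp+/- sample 1, against -0.26 without wild-type sample 1. Ptprc, which encodes the phosphatase CD45, differed by 0.12 on its brightest probe set, the phospholipase gene Plcg2 by -0.30 and the kinase gene Btk by -0.16. The dimmer probe set of Ptprc differed by -0.63, the opposite sign. Syk, the kinase that binds the CD79 tails, and Bank1, a B cell scaffold, had the lowest p-values among brightest probe sets, with differences of 0.42 and -0.49 (limma adjusted p = 0.99 for both). The dimmer tested probe sets of Syk differed by 0.20 and -0.78, so they did not share 1 sign. The adaptor Blnk, the kinase Blk and the inhibitory receptor Cd22 were at background in both genotypes.

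Of 14 regulators of the Rag and surrogate light chain genes, 12 were tested, with 9 higher, 3 lower and none past the test, and a median of 0.08, which was 0.31 without Crebbp+/- sample 1. Irf4, a transcription factor of pre-B cells, read 6.74 and 6.17 in the Crebbp+/- samples, against 5.04 and 5.30 in wild type. Its difference was 1.28 (limma adjusted p = 0.99), and its samples did not overlap. Ebf1, which encodes a factor that activates Igll1 and Vpreb1, read 7.31 and 8.14 in Crebbp+/-, against 5.17 and 7.51 in wild type. Its difference of 1.38 (limma adjusted p = 0.99) was smaller than the gap of 2.34 between the wild-type samples. A dimmer tested probe set of Ebf1, near background, differed by 0.56 (limma adjusted p = 0.99). The brightest regulators differed by little, Myb by -0.01, Ikzf1 by 0.06 and Bcl11a by 0.04. Pax5, the factor of B cell commitment, and Ikzf3 were at background in both genotypes.

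**Figure D4:**
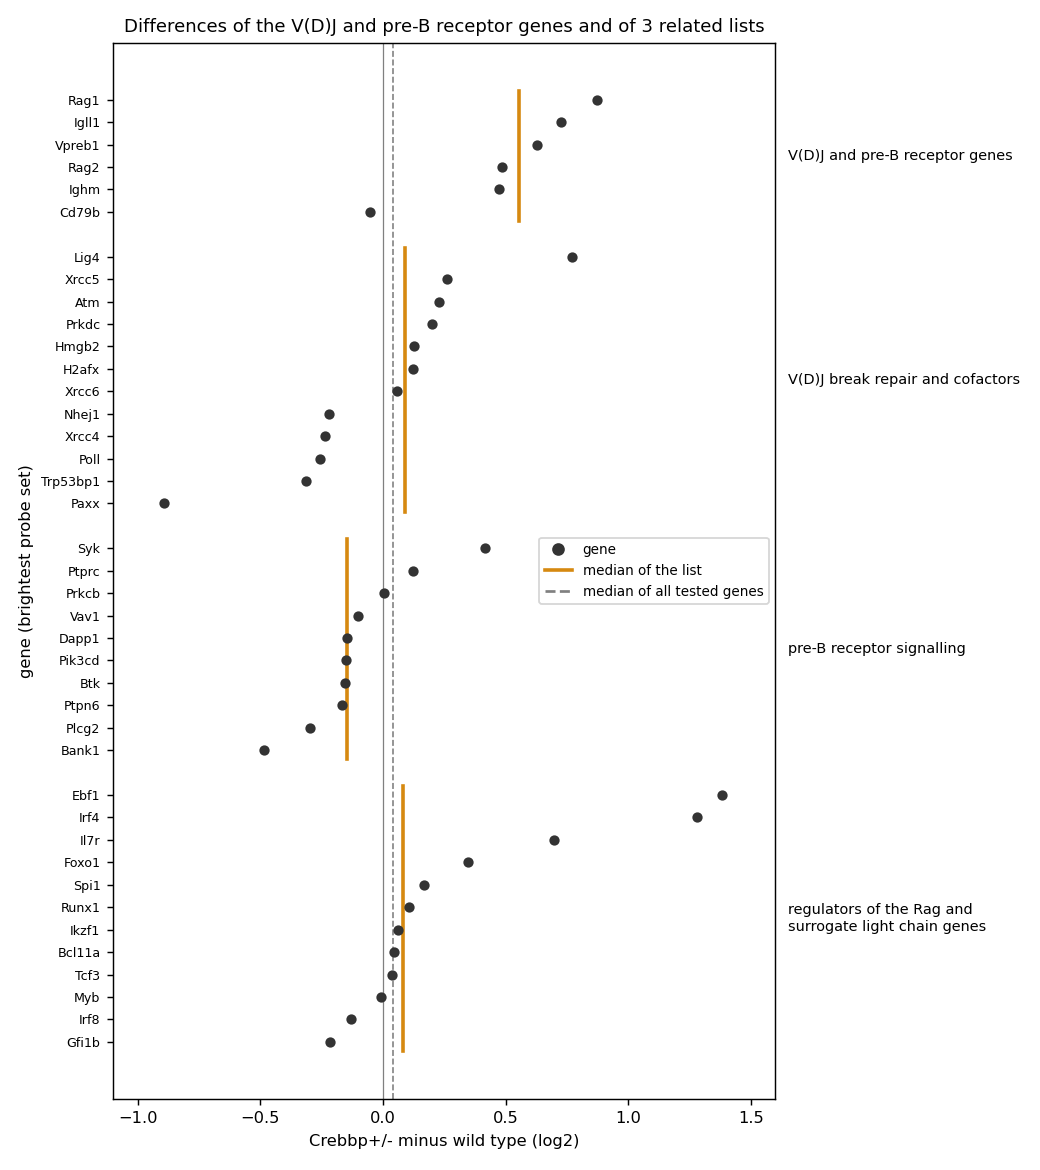
Difference between genotypes, Crebbp+/- minus wild type in log2 units, for each tested gene by its brightest probe set. The genes of V(D)J recombination and the pre-B receptor are at the top and 3 related lists below, orange lines are list medians and the dashed line is the median of all tested genes, 0.04. The medians are 0.56 at the top and 0.09, -0.15 and 0.08 in the lists below.

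Markers of other cell types were read beside these genes, and none passed the test. Of 8 committed B cell markers, 7 had a probe set and 4 of those, Pax5, Blnk, Cd22 and Spib, were at background. Pou2af1, a B cell coactivator, read 4.82 and 4.08 in Crebbp+/-, against 2.44 and 3.11 in wild type, a difference of 1.68 (limma adjusted p = 0.99). Cd72 differed by 0.49 and Cd24a by -0.03. The summed signal of the 7 on the log2 scale, 13.33 and 13.44 in Crebbp+/- against 13.35 and 13.49 in wild type, is that of Cd24a almost alone and says little of the others. Mature B cell genes were at background but for Cd40, which was near it, and Cd3d, Cd3e, Cd3g, Cd8a and Ptcra of T cells were at background in all 4 samples. Of the other T cell markers, Cd4 was clear, 2.40 to 2.78 above background, with a difference of 0.14, and Cd247 read 4.13 and 2.93 in Crebbp+/-, against 2.87 and 3.07 in wild type. All 5 erythroid markers with a probe set were at background. Of 6 macrophage markers 3, Adgre1, C1qa and Marco, were at background. The brightest, Csf1r, read 9.31 and 10.90 in Crebbp+/-, against 9.81 and 10.76 in wild type. Cd68 was clear, 2.76 to 3.31 above background, and C1qb was near background. Of 6 granulocyte markers 2 were at background, S100a9 and Ltf, and S100a8 was near it. Mpo, Prtn3 and Elane were clear and differed by 0.04, 0.02 and -0.29.

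The summed signal of liver cell genes was lowest in wild-type sample 1. That of 5 hepatocyte genes was 8.11 and 8.67 in Crebbp+/-, against 5.29 and 9.65 in wild type, and Alb, the albumin gene, read 5.85 and 5.74 against 2.43 and 7.06. Of the 9 stem and progenitor markers with a probe set, all were clear, none passed the test, and 4 had both Crebbp+/- samples below both wild-type samples. These were Meis1, Hlf, Mecom and Procr, with differences of -1.26, -0.54, -0.38 and -0.81. The share of all tested probe sets that lay below in this way is not given here. The count therefore has no share to compare with. Of the 9 markers, 4 were higher in Crebbp+/- and 5 lower, with a median difference of -0.11 and a range from -1.26 to 0.35. Cd34, among the brightest, differed by 0.07. The signal of the 5′ Gapdh control minus that of the 3′ control, lower where RNA or its copies are shorter, was -0.85 and -0.93 in Crebbp+/- sample 1 and -1.89 and -1.88 in sample 2, against -1.20 and -1.24 in wild-type sample 1 and -2.64 and -2.55 in sample 2. It was closer to 0 in Crebbp+/- within each number. The part of these values in the differences of the receptor genes was not tested.

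Each tested gene was taken by its probe set of highest mean, 1427351_s_at for Ighm and 1420176_x_at for Igll1. The probe sets with the most similar pattern over the 8 arrays were sought among 19046 others with 1 gene symbol. Rag1 was most like Chfr, Cdk12 and Papss1, with r between 0.97 and 0.98, and Rag2 most like Ust, Zfp319 and Cep68, with r between 0.97 and 0.98. Vpreb1 was most like Stox2, Timm8a1 and Tmem9b, with r between 0.95 and 0.97, and Igll1 most like Ppp2r2d, Dcaf7 and Axin1, with r between 0.97 and 0.99. Ighm was most like Snx19, Sf3b3 and Rab1a, with r between 0.96 and 0.97, and Cd79b most like Kank3, Zfp638 and Scarb2, with r between 0.95 and 0.97. No gene appears for more than 1 of the 6. These are likenesses of 1 probe set per gene, and the 2 tested probe sets of Ighm correlated with each other with r = 0.35. The correlations are the highest of 19046 and rest on 8 arrays of 4 samples, so they describe these arrays only.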

How the data were processed

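RNA of sorted cells was measured on 8 Affymetrix mouse arrays. Per the labels' protocols, 12 ng of total RNA was amplified with the Ovation system and labelled with biotin. The authors made the deposited log2 values with GCRMA, per the submitters' processing notes, and its version is not given in the sources used here. GCRMA draws dim probe sets towards a common floor, which shrinks differences near background. No scanner files were used. The number of samples, their spread and the nearness of many signals to background limit the precision.

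The 2 arrays of a sample were averaged (n = 2 per genotype). Nothing says that samples came from separate litters or arrays from separate cells, so p-values measure the spread between these preparations. The 22518 probe sets with a mean above 2.72 entered limma 3.58.1 under R 4.3.3 (functions lmFit and eBayes, the second with trend) and p-values were adjusted by Benjamini-Hochberg at 0.05 over all of them. The fit was tested on simulated data, where it did not recover shifts of the size seen in the receptor genes at the spread of these samples. The lack of a call therefore does not show that these genes are unchanged. An exact permutation test of 2 against 2 cannot go below 0.33 and was not used. Same-numbered samples deviated together (r = 0.55), but with 2 pairs this does not establish pairing. Over all probe sets, arrays of the same number and other genotype had a median r of 0.988. Arrays from different samples of 1 genotype had 0.985, so likeness by number was no weaker than likeness by genotype.

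The rule for names took every probe set of the 10 genes, in each list the 3 genes of highest mean and the 2 of lowest unadjusted p, 3 most similar probe sets per gene, and Crebbp. Of the genes that this rule took from the cell type marker lists, only some are printed, so the markers shown are a narrower choice. Kit, Procr and genes named only as lying at background were named after their values were seen, to check the sort or to complete a count. The dimmer probe sets of Ebf1, Ptprc and Syk were also named after their values were seen. Genes and lists were chosen with earlier results of these data known. Names came from the platform annotation. Each result was recomputed with single arrays as the unit, a block for sample number, other filters, further normalization, other variance settings, another choice of probe set or distance from background, and each sample or array left out.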

Additional observations from a re-analysis of the deposited data

Results flagged for a closer look

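In 7 of the 44 combinations of probe set and genotype, 1 of the 4 arrays stood apart, which means that its gap to the nearest other array was more than 0.83 of the whole range. Chance alone gives about 1 such case in 20, and the arrays of a sample are repeats of each other. Of these, 6 are probe sets at background, where the range is small.

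The exception is Vpreb1 in wild type, with a gap of 0.974 of the range, where the second array of sample 2 read 4.09 and the other 3 arrays 3.50 to 3.52. Cd79a in wild type had a gap of 0.991, with the first array of sample 2 at 2.86 and the others at 2.29 to 2.30. In Vpreb3 the gap was 0.922 in Crebbp+/-, with 1 array at 2.43 and the others at 2.32 to 2.33, and 0.863 in wild type. In Ighm it was 0.924 for 1425247_a_at and 0.891 for 1426196_at, both in Crebbp+/-. In Dntt 1420166_at it was 0.841 in Crebbp+/-, with 1 array at 2.29 and the others at 2.32 to 2.33.

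The probe set 1422416_s_at, which lists Vpreb2 and Vpreb1 and entered no comparison, read 2.77, 2.58, 2.89 and 2.46 on the Crebbp+/- arrays, against 2.41, 2.34, 2.34 and 2.41 on the wild-type arrays. Its difference was 0.30, all 4 Crebbp+/- arrays were above all 4 wild-type arrays, and it was not tested because its mean was below the filter.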

How the results depend on the processing

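The count of 0 tested probe sets past the test held under every alternative tried, including the omission of each sample and array, except with the 8 arrays taken as independent, where 1 probe set outside these genes passed. None of these genes passed under any alternative. With sample number taken as a replicate block, 0 probe sets passed, and the adjusted p was 0.21 for Rag1 and 0.25 for Igll1 1420176_x_at, so the pairing changed no call. Both Crebbp+/- samples were above both wild-type samples in 5 probe sets, and in 0 with the upper 25% of probe sets, which leaves only Cd79b and 1 Ighm probe set. With no filter the count was 11, 6 of them below the filter. Those 6 are Ighm probe sets at background, where the separation can be very small. The difference was 0.0007 for 1427870_x_at and 0.0017 for 1425385_a_at. The omission of 1 sample or array gave 4 to 7. Shares over all probe sets are not given for these alternatives. With 1 sample left out complete separation is easier, so 4 to 7 does not show that the count of 5 is stable. The median difference of 0.56 was 0.21 over the upper 25%, and 0.33 to 0.76 when 1 sample or array was left out. With a distance of 0.5 log2 units, 7 probe sets were clear instead of 3. Differences changed sign on the omission of 1 sample or array for Ighm 1427351_s_at (-0.24 to 1.18), Igll1 1420177_at (-0.43 to 0.28) and Cd79b (-0.19 to 0.081). For the other 5 tested probe sets the sign held under the alternatives run. Leaving out 1 sample moved Rag1 between 0.53 and 1.21, Rag2 between 0.21 and 0.76, Vpreb1 between 0.42 and 0.83, Igll1 1420176_x_at between 0.36 and 1.09 and Ighm 1427329_a_at between 0.33 and 0.54. Signals within 1 log2 unit of background limit what can be said of Rag1, Rag2, Vpreb1 and Igll1.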
